A study of Homo sapiens with 12 samples.

Results

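Recurrent driver genes of head and neck squamous cell carcinoma (HNSCC) were followed in cultured HNSCC cells, namely CDKN2A, CDKN2B, CCND1, NOTCH1, FAT1, PIK3CA, SMAD4, TP63 and SOX2. They were chosen by gene symbol, 9 of the 60099 genes in the table, and all 9 passed the filter on low counts that left 19944 genes for testing. RNA of the established lines Cal27 and HN30 was sequenced after removal of ribosomal RNA, without treatment or after 24 h with IFNα, the type I interferon used in the study. The 12 samples carry the letters A to F with 2 replicates each, and no sample carried any other treatment or allele named in the labels. Samples A1, A2, D1 and D2 were untreated controls, B1, B2, E1 and E2 received 20 ng/ml, and C1, C2, F1 and F2 received 200 ng/ml. Letters A to C form one line set and D to F the other. The labels do not say which set is Cal27 and which is HN30, so the sets are named by their letters. Nothing in the labels says that replicates came from separate cultures, so the p-values below measure only the spread between these samples. Each set stands for a single cell line, and a difference between the sets is a difference between those cultures, not between kinds of tumour.

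These genes act in a few connected circuits of squamous cells. CDKN2A and CDKN2B encode brakes on the cyclin D kinases, and CCND1 encodes cyclin D1, the partner those kinases need to push a cell from G1 into S phase. NOTCH1 is a receptor whose signal drives squamous cells to differentiate, FAT1 is a very large atypical cadherin, PIK3CA is a catalytic subunit of the PI3 kinase, and SMAD4 is the shared partner of the SMADs that carry TGF-beta and BMP signals. TP63 and SOX2 are transcription factors that maintain the squamous stem cell state. In HNSCC the brakes, NOTCH1, FAT1 and SMAD4 are often lost or mutated, while CCND1, PIK3CA, TP63 and SOX2 lie in regions that are often gained. Copy number and mutations were not measured here, and RNA levels alone are described.

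The total estimated count was between 10517448 and 16056734 per sample, and every control was deeper than every sample at 200 ng/ml. Across 13034 genes, the log2 levels of samples within a line set correlated at 0.944 to 0.979, and those of samples from different sets at 0.722 to 0.758. Epithelial markers summed to 3336 to 4087 TPM (a unit scaled for transcript length and depth) in A-C and 2646 to 3439 TPM in D-F. The leukocyte list summed to 9.15 to 18.9 TPM in A-C and 5.34 to 40.6 TPM in D-F, with PTPRC, CD3E, LYZ and NKG7 at most 3 counts in every sample. CD68, a lysosomal protein of macrophages on that list, was higher at 200 ng/ml by 1.77 on the log2 scale (adjusted p = 4.3e-05, edgeR). The fibroblast list summed to 5.63 to 15.4 TPM, with DCN, THY1 and PDGFRA at no more than 3 counts. The endothelial list summed to 15.3 to 21.7 TPM in A-C and at most 0.733 TPM in D-F, nearly all from CDH5. All 20 interferon-stimulated genes checked were called higher at 200 ng/ml, with a median log2 fold change of 3.87.

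The untreated cells of the line sets differed in most of the driver genes. SMAD4 and CDKN2B were higher in D than in A, and FAT1, TP63 and SOX2 were lower, each by at least 2-fold. NOTCH1 was higher and CCND1 lower in D by less than 2-fold. CDKN2A and PIK3CA did not pass the test. Of the 9 members 5 were called, meaning an adjusted p of at most 0.05 in the edgeR quasi-likelihood test over all genes and a fold of at least 2, beside 26.6% of all genes tested. In all, 7 of 9 passed at any fold, beside 46.4% of all genes, so the sets differed in many other genes too. SOX2, which passed the filter on low counts only through A-C, had to differ, and of the other 8 members 4 were called and 6 passed. The median log2 fold change of these 8, D minus A, was -0.16, beside 0.01 for all genes.

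**Figure D1:**
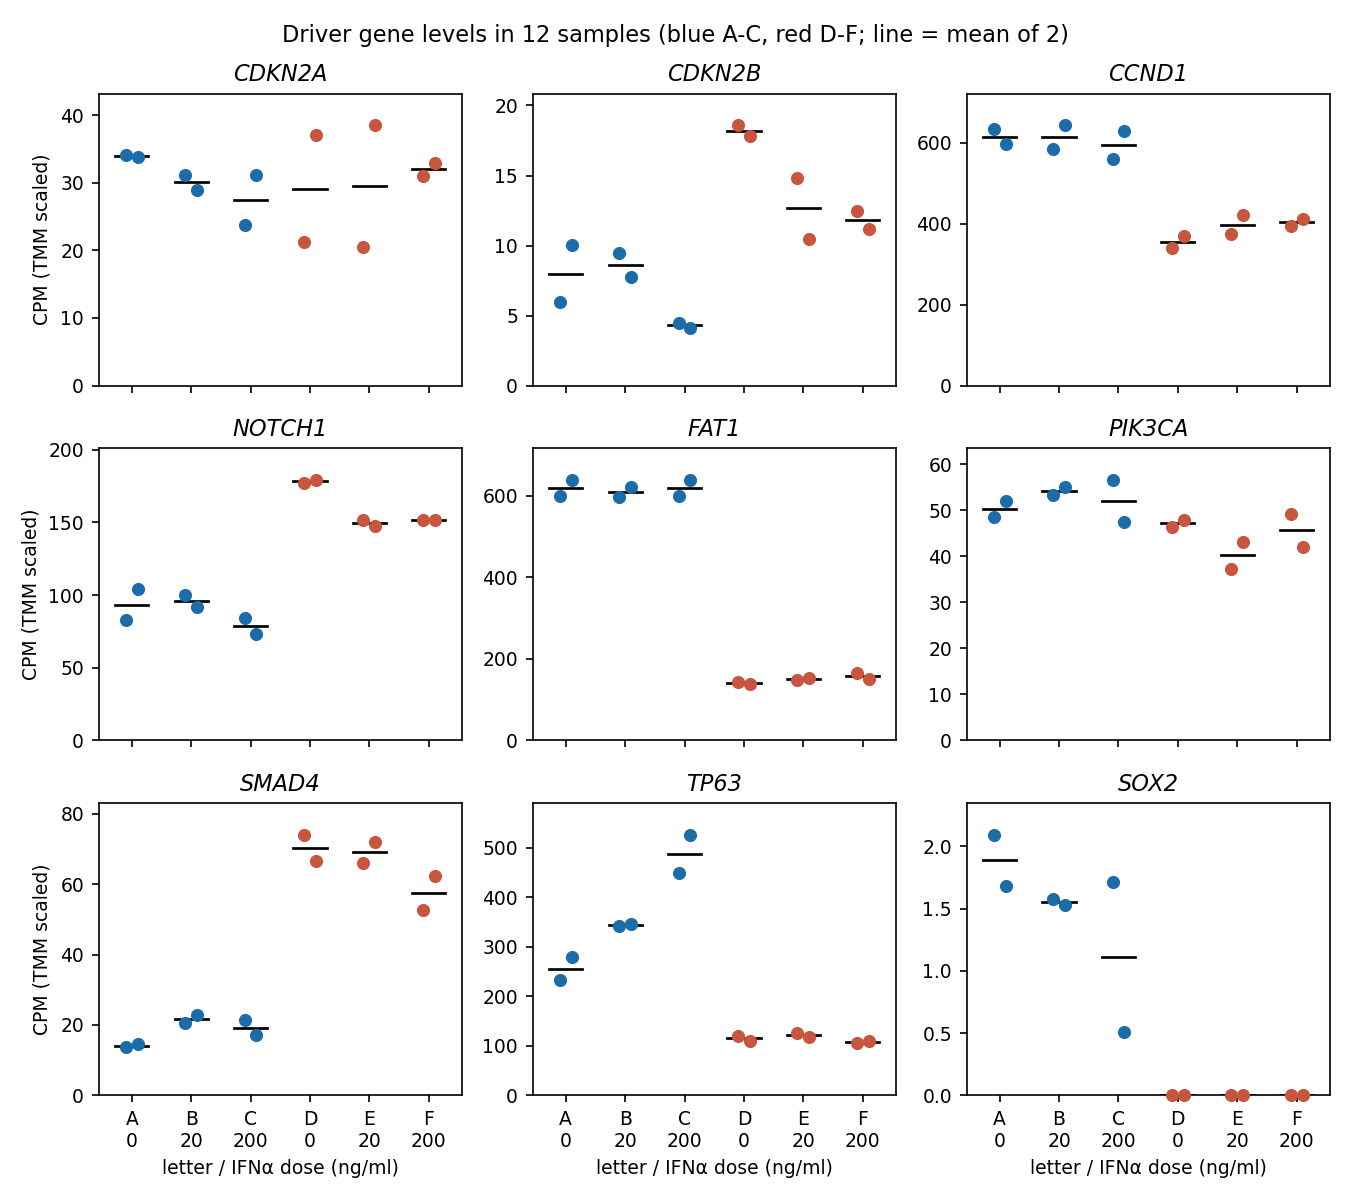
Depth-scaled counts (CPM, scaled by TMM, linear axes from 0) of each driver gene in the 12 samples, by letter and IFNα dose in ng/ml, with blue points for A-C, red points for D-F and a black line at the mean of 2 replicates. FAT1, CCND1, TP63 and SOX2 are higher in every A-C sample than in every D-F sample, NOTCH1, SMAD4 and CDKN2B are lower in every A-C sample, and TP63 is highest in C, at 449 and 526 CPM.

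Levels of different genes were compared in TPM over the 6 samples of a set. In A-C the order of medians was TP63 at 335 TPM, CCND1 at 238, FAT1 at 171, CDKN2A at 54.8, PIK3CA at 24.1, NOTCH1 at 17.3, SMAD4 at 11.8, CDKN2B at 4.47 and SOX2 at 0.98 TPM. Only TP63 with CCND1 and PIK3CA with NOTCH1 were neighbours with overlapping ranges. In D-F the order was CCND1 at 180 TPM, TP63 at 126, CDKN2A at 69.4, FAT1 at 53.6, NOTCH1 at 33.6, SMAD4 at 31.5, PIK3CA at 19.2 and CDKN2B at 7.56 TPM, with SOX2 at 0. There the ranges of CDKN2A and FAT1, of NOTCH1 and SMAD4, and of SMAD4 and PIK3CA overlapped. Samples were compared with each other on CPM instead, since TPM of a gene also moves with how its reads are divided between long and short transcripts.

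CDKN2A lies on chromosome 9, from 21967753 to 21995301 on the minus strand of GRCh38. It encodes unrelated proteins from different first exons: p16, the INK4A product, which binds the cyclin D kinases, and ARF, which stabilizes p53. Both first exons are spliced to the same exon 2, at 21970902 to 21971208, and the junctions are printed here to show where the messages part. The capitals mark the first 15 bases of the shared exon, and the lower case letters the last 15 bases of the exon before it, from 21994139 to 21994624 for ARF and from 21974678 to 21975098 for p16.
CDKN2A-214 (ARF): ttcctagaagaccagGTCATGATGATGGGC
CDKN2A-201 (p16): cggaggccgatccagGTCATGATGATGGGC

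CDKN2A was at 34.2 and 33.8 CPM in A, 31.2 and 28.9 in B, and 23.8 and 31.2 in C. It was at 21.3 and 37.0 CPM in D, 20.5 and 38.6 in E, and 31.05 and 32.98 in F. The sets overlapped, and D1 and E1 were lower than their replicates. The log2 fold change, D minus A, was -0.22 with a 95% interval from -0.91 to 0.46 (adjusted p = 0.589, edgeR), an interval that leaves room for almost a 2-fold difference. The gap between D1 and D2 and between E1 and E2 lay in a coding transcript with a start inside the gene, CDKN2A-212. It had 1 count in D1 and 1 in E1, against 271 in D2 and 219 in E2. Without this transcript CDKN2A was at 19.3 to 21.2 CPM in all 6 D-F samples, at 27.2 and 31.6 CPM in A and at 16.9 and 18.4 CPM in C. The fold change, D minus A, was then -0.53 with an adjusted p of 0.00558 in edgeR, so CDKN2A then passed the test, at a fold under 2, a choice made after seeing the data. At 20 ng/ml, E minus B, it was -0.43 without the transcript (adjusted p = 0.0186, edgeR).

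Transcripts that begin at or near the ARF exon were at 17.8 to 31.6 TPM in A-C and 26.5 to 31.4 TPM in D-F. This class includes CDKN2A-204, a processed transcript that ends before the shared exon. CDKN2A-204 was at 3.03 to 9.43 TPM in A-C and 7.16 to 16.6 TPM in D-F. The coding ARF transcript CDKN2A-214 was at 6.52 to 16.3 TPM in A-C and 10.85 to 14.2 TPM in D-F, so it was present in every sample. The whole class, not the coding message alone, made up 43.5% ± 11.3 (SD, n = 6) of the TPM of CDKN2A in A-C and 52.8% ± 23.6 (SD, n = 6) in D-F. The difference was within the spread between samples (two-sided exact permutation test exchanging sets within a dose, p = 0.4259, smallest possible p = 0.009259). Transcripts that begin at the INK4A exon were at 16.7 and 19.8 TPM in A and 7.23 and 21.8 TPM in B, but at 2.22 and 7.09 TPM in C. In D-F they were at 1.02 to 2.93 TPM in all samples but E2, at 8.90 TPM. In A and B most of this came from CDKN2A-203, a transcript marked for nonsense-mediated decay. The full-length p16 message CDKN2A-201 had 12 and 19 counts in A, 17 and 20 in B, 0 and 3 in C, and in D-F no count outside E2, with 18. No other sample of D-F gave a count of it at this depth, where 3 counts correspond to between 0.187 and 0.285 CPM.

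**Figure D2:**
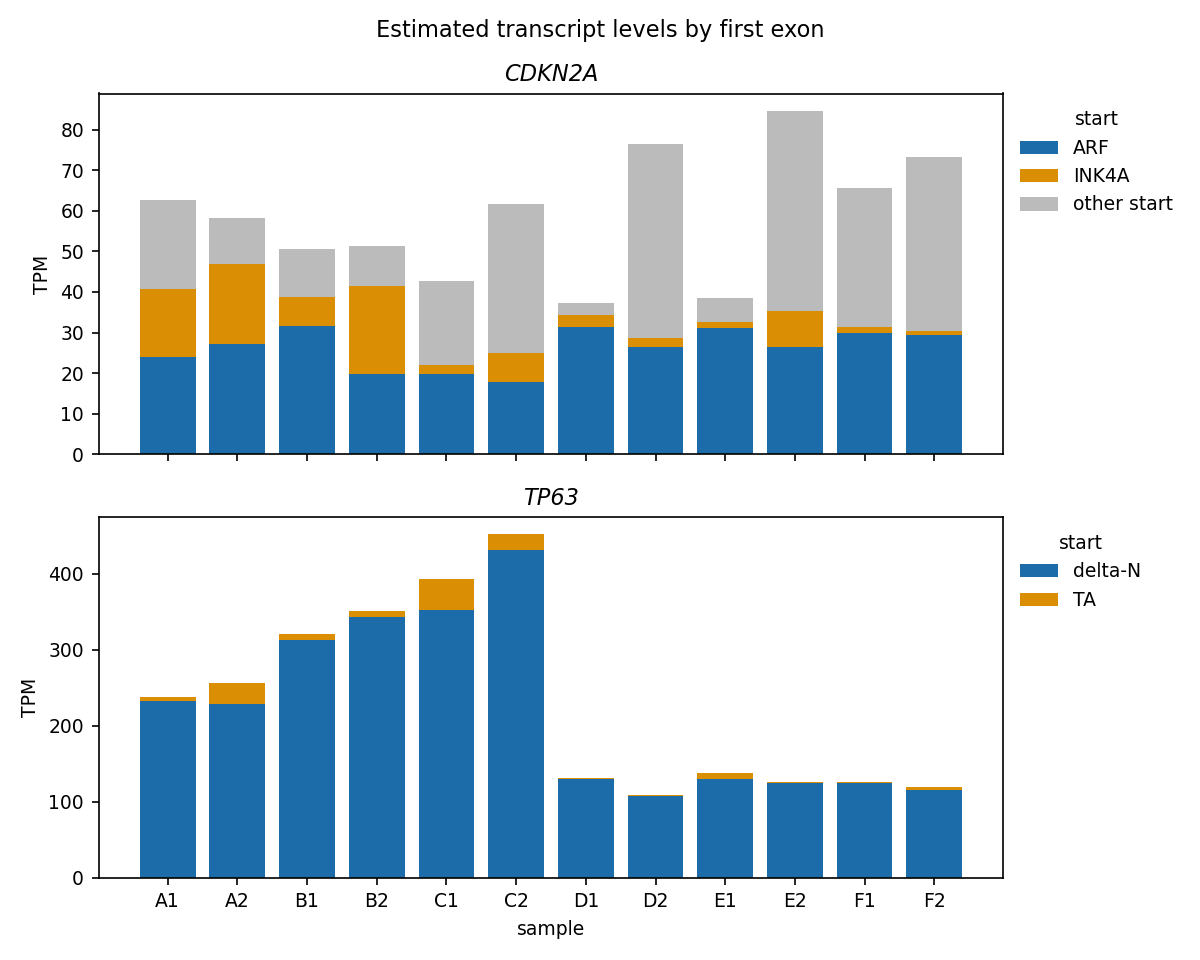
Stacked bars of estimated TPM in each of the 12 samples. CDKN2A transcripts are split by start (at or near the ARF exon, at the INK4A exon, or inside the gene). TP63 transcripts are split by promoter (delta-N or TA). The ARF class, which includes the processed transcript CDKN2A-204, lies between 17.8 and 31.6 TPM throughout. The grey class is 3.01 TPM in D1 and 47.9 TPM in D2. Delta-N transcripts, which include the retained-intron TP63-213, make up 89.0% or more of TP63 in every sample.

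Reads at CDKN2A may be shared with other records of the table. A locus assembled from the reads and without a gene name, on the same strand from 21906851 to 21980950, overlaps the CDKN2A exons from the INK4A exon onward. It had 16 to 32 counts in A-C and 570 to 782 counts in D-F, and its log2 fold change, D minus A, was 4.61 (SE 0.25, adjusted p = 8.0e-07, edgeR). How the authors' counting divided reads between it and CDKN2A is not given in the sources used here, so the CDKN2A level in D-F is uncertain. The antisense gene CDKN2B-AS1, which overlaps the upstream end of CDKN2A and the whole of CDKN2B, had 65 to 109 counts in A-C and 72 to 110 in D-F.

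CDKN2B, at 22002903 to 22009363 on the same strand of chromosome 9, encodes p15, a brake on the same kinases that TGF-beta is known to induce. It was at 5.96 and 10.01 CPM in A, 9.46 and 7.77 in B, and 4.50 and 4.09 in C. It was at 18.6 and 17.8 CPM in D, 14.8 and 10.5 in E, and 12.5 and 11.2 in F. Every D-F sample was above every A-C sample, although E2 at 10.5 CPM and the control A2 at 10.01 CPM lay close. In controls the log2 fold change, D minus A, was 1.18 (SE 0.26, adjusted p = 0.00423, edgeR). CDKN2A and CDKN2B transcripts shared 1.73% of the 31-base words of CDKN2B, so few reads could fit both paralogs.

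CCND1 lies on chromosome 11 from 69641087 to 69654474, and was among the most abundant members in both sets. It was at 634 and 596 CPM in A and at 342 and 370 CPM in D. Over all doses it ranged from 559 to 645 CPM in A-C, with a median of 613, and from 342 to 422 CPM in D-F, with a median of 384. The ranges did not overlap, and the log2 fold change in controls was -0.79 (SE 0.09, adjusted p = 0.0001025, edgeR). Of the other G1/S genes, 2 of 17 were called between the controls, 11.8% beside 26.6% of all genes. CCND2, encoding cyclin D2, had 3044 and 3589 counts in A and 2 and 0 counts in D. CDKN1A, encoding the kinase inhibitor p21 and a p53 target, went the other way with 25.1 and 21.5 CPM in A and 205 and 171 CPM in D, higher by 3.01 on the log2 scale (SE 0.12, adjusted p = 2.0e-07, edgeR). In the controls, A thus held messages of cyclins D1 and D2, while D held less cyclin D1 and more p15 and p21 message. Transcripts from the INK4A exon went the other way from p15 and p21, at 16.7 and 19.8 TPM in A and 2.93 and 1.98 TPM in D. In A most of this was CDKN2A-203, marked for nonsense-mediated decay, at 14.8 and 17.2 TPM. The full-length p16 message CDKN2A-201 was at 1.21 and 1.48 TPM in A and 0 in D. The unnamed locus over the INK4A exon had 32 and 22 counts in A and 782 and 690 in D, so the level in D is uncertain.

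NOTCH1, on chromosome 9 from 136494444 to 136545862, was at 82.8 and 104 CPM in A, 100 and 91.9 in B, and 83.9 and 73.2 in C. It was at 177 and 179 CPM in D, 152 and 148 in E, and 151 and 151 in F, above every A-C sample. The log2 fold change in controls was 0.93 (SE 0.11, adjusted p = 0.0001235, edgeR), just under 2-fold. The pathway list showed no common direction: 7 of 27 tested genes were called, 2 higher and 5 lower in D, a share of 25.9%, with a median log2 fold change of 0.00. The ligand gene DLL1 was at 36.4 and 43.5 CPM in A and 0.265 and 0.388 CPM in D. NRARP, a Notch target that feeds back on the pathway, was at 17.8 and 17.1 CPM in A and 1.99 and 0.906 CPM in D. HEYL, a target gene of the HES family, had 17 and 23 counts in A and none in D, at least 7.27-fold higher in A against 3 counts per library. Its call, like that of SOX2, rests on a group without counts, and the 7 of 27 include it. MAML3, a coactivator of the Notch complex, was at 2.26 and 1.81 CPM in A and 17.2 and 16.8 CPM in D. The receptor NOTCH2 had a log2 fold change of -1.01 (adjusted p = 4.2e-06, edgeR), and NOTCH3 of 1.02 (adjusted p = 8.5e-05, edgeR), so receptors of the family differed in opposite directions. NOTCH2 and NOTCH3 were picked after their values were seen.

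FAT1 differed widely between the sets and little within them. On chromosome 4 from 186587783 to 186726722, it was at 599 and 640 CPM in A, 597 and 623 in B, and 600 and 639 in C. It was at 143 and 139 CPM in D, 150 and 153 in E, and 165 and 150 in F. The highest sample was 1.07 times the lowest in A-C and 1.19 times in D-F, while the sets were 4.40-fold apart in controls (log2 fold change -2.14, SE 0.08, adjusted p = 1.2e-07, edgeR). The full-length FAT1-201 carried the difference too, at 48.1 to 53.2 TPM in A-C and 10.8 to 15.6 TPM in D-F. Among the FAT and Hippo pathway genes 7 of 22 were called, 2 higher and 5 lower in D, a share of 31.8%, with a median log2 fold change of -0.36. CYR61 and CTGF, standard target genes of YAP, were among the lower genes. CYR61 was at 353 and 372 CPM in A and 35.0 and 36.9 CPM in D, and CTGF at 11.52 and 10.97 CPM in A and 1.79 and 1.88 CPM in D. FJX1, a relative of the kinase that modifies FAT cadherins in flies, was at 123 and 145 CPM in A and 21.5 and 25.9 CPM in D. FAT3 had 12 and 38 counts in A and 2 and 0 in D. YAP1 itself had a log2 fold change of 0.00 (adjusted p = 0.989, edgeR).

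PIK3CA, on chromosome 3 from 179148114 to 179240093, was nearly level. It was at 48.6 and 52.0 CPM in A, 53.3 and 55.1 in B, and 56.7 and 47.6 in C. It was at 46.4 and 47.9 CPM in D, 37.4 and 43.1 in E, and 49.3 and 42.1 in F. The sets overlapped, and the log2 fold change in controls was -0.09 with a 95% interval from -0.38 to 0.19 (adjusted p = 0.579, edgeR). The full-length PIK3CA-201 was at 7.10 to 9.35 TPM in all samples, yet the gene's TPM ran from 13.2 to 33.4. A short transcript, PIK3CA-204, was estimated at 0 TPM in 5 samples and at 8.76 to 22.9 TPM in the other 7, from at most 37 counts. Of the PI3K pathway list 4 of 20 genes were called, 3 higher and 1 lower in D, a share under the 26.6% of all genes. INPP4B, a phosphatase of the pathway, was at 67.6 and 70.4 CPM in A and 225 and 202 in D, and RICTOR, a subunit of the mTOR complex that activates AKT, at 107 and 105 CPM in A and 308 and 258 in D. FOXO1, a transcription factor that AKT inhibits, was at 46.0 and 43.7 CPM in A and 14.5 and 11.3 in D. PIK3CG, the catalytic subunit typical of blood cells, had no counts in A and 40 and 48 in D, at least 13.2-fold higher in D. Its call, like that of SOX2, rests on a group without counts, and the 4 of 20 include it.

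SMAD4, on chromosome 18 from 51028394 to 51085045, was the lowest-ranked tumour suppressor in A-C after CDKN2B. It was at 13.8 and 14.5 CPM in A, 20.5 and 22.9 in B, and 21.3 and 17.1 in C. It was at 74.1 and 66.5 CPM in D, 66.1 and 72.0 in E, and 52.7 and 62.2 in F. No sample of one set came near the other, and in controls SMAD4 was 4.97-fold higher in D (log2 fold change 2.31, SE 0.15, adjusted p = 2.0e-06, edgeR). The coding transcript SMAD4-201 was at 0.57 to 2.45 TPM in A-C and 2.90 to 10.01 TPM in D-F. In E1 the transcript SMAD4-214, marked for nonsense-mediated decay, took 28.6 TPM, so the gene's TPM of 61.0 there was over that of every other sample while its CPM was not. In the SMAD and TGF-beta list 6 of 21 genes were called, 5 higher and 1 lower in D, a share of 28.6%, with a median log2 fold change of 0.45. The inhibitory SMADs, which damp the pathway, were both higher: SMAD7 was at 3.71 and 3.36 CPM in A and 15.4 and 19.4 in D, and SMAD6 at 2.02 and 2.45 CPM in A and 9.21 and 7.76 in D. The receptor gene TGFBR2 was at 49.2 and 76.3 CPM in A and 276 and 296 CPM in D. ID3, a BMP target, was at 20.2 and 17.2 CPM in A and 6.50 and 5.82 CPM in D.

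TP63 spans 189631416 to 189897279 on chromosome 3. Its upstream promoter gives the TA form, with a transactivation domain, and its downstream promoter the delta-N form, the usual one of basal squamous cells. The forms meet at a shared exon at 189808272 to 189808526, and the junctions below are shown as they separate the forms. Capitals mark the first 15 bases of the shared exon, and lower case the end of the exon before it, at 189738642 to 189738774 for TA and 189789660 to 189789842 for delta-N.
TP63-201 (TA): agtgaccccatgtggCCACAGTACACGAAC
TP63-203 (delta-N): actcaatttagtgagCCACAGTACACGAAC

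TP63 was at 232 and 279 CPM in A, 342 and 346 in B, and 449 and 526 in C. It was at 120 and 110 CPM in D, 125 and 117 in E, and 106 and 109 in F. The sets did not overlap, and within A-C neither did the doses. In controls the log2 fold change, D minus A, was -1.15 (SE 0.11, adjusted p = 2.4e-05, edgeR). Delta-N transcripts made up 94.7% ± 4.2 (SD, n = 6) of the TPM of TP63 in A-C and 97.7% ± 2.0 (SD, n = 6) in D-F, a difference within the spread (two-sided exact permutation test, p = 0.1944, smallest possible p = 0.009259). In absolute terms delta-N transcripts were at 228 to 431 TPM in A-C and 107 to 130 TPM in D-F. This class, also in the shares, includes TP63-213, a retained-intron transcript, at 62.3 to 99.8 TPM in A-C and 22.5 to 48.7 TPM in D-F. TA transcripts were at 4.54 to 39.9 TPM in A-C and 1.18 to 8.0 TPM in D-F, and moved between replicates with 1 transcript, TP63-207, at 0 in A1 and 22.6 TPM in A2.

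SOX2, a gene without introns at 181711924 to 181714436 on chromosome 3, was scarce. It had 26 and 26 counts in A, 19 and 22 in B, and 19 and 5 in C, or 2.1 and 1.68, 1.58 and 1.53, and 1.71 and 0.512 CPM. All 6 D-F samples had 0 counts. Against 3 counts per library it was at least 9.60-fold higher in A than in D, at least 6.30-fold in B than in E and at least 4.52-fold in C than in F. The last bound is 6.96-fold from C1 alone and 2.08-fold from C2 alone. SOX2 passed the filter on low counts through A-C alone, so its call was fixed in advance and no p-value is printed for it. The counts of called members between the sets are therefore also given without SOX2. SOX2 lies inside SOX2-OT, a long noncoding gene on the same strand, which had at most 7 counts in A-C and at most 6 in D-F.

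In the squamous lineage list 11 of 21 tested genes were called between the controls, a share of 52.4% beside 26.6% of all genes, with 7 higher and 4 lower in D. The 4 lower genes included the basal keratins. KRT5 was at 1357 and 1573 CPM in A and 331 and 330 CPM in D. KRT14, the partner of KRT5, had 543 and 730 counts in A and none in D, at least 231-fold higher in A. Its call too rests on a group without counts, and the 11 of 21 include it. PAX9, an oral epithelial transcription factor, was at 16.0 and 16.6 CPM in A and 2.45 and 2.39 CPM in D. SOX4, in contrast, was at 18.6 and 17.6 CPM in A and 73.0 and 71.4 CPM in D. TP63, KRT5 and KRT14 were all lower in D, while other squamous genes such as TRIM29 and PKP1, with log2 fold changes of 1.18 (adjusted p = 3.0e-06, edgeR) and 1.53 (adjusted p = 0.00015, edgeR), were higher. TRIM29 and PKP1 were named after their values were seen.

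The same contrast was made in treated cells. At 20 ng/ml, E against B, 4 of 9 members were called beside 26.2% of all genes, and 7 of 9 passed at any fold beside 45.5%, or 3 and 6 of 8 without SOX2. At 200 ng/ml, F against C, 5 of 9 were called beside 28.4% and 7 of 9 passed beside 48.3%, or 4 and 6 of 8 without SOX2. FAT1 differed by -2.01 at 20 ng/ml and -1.97 at 200 ng/ml on the log2 scale (SE 0.08 for each), close to the -2.14 of the controls. NOTCH1 differed by 0.64 and 0.95, and CCND1 by -0.63 and -0.56, on the same scale, although on TPM CCND1 at 200 ng/ml did not pass, with -0.28 (adjusted p = 0.0658, limma). CDKN2B was the member whose call was not met at 20 ng/ml, with a log2 fold change of 0.55 (adjusted p = 0.111, edgeR), but it was 1.46 at 200 ng/ml (adjusted p = 0.00183, edgeR). On TPM these were 0.81 (adjusted p = 0.0204, limma) and 0.11 (adjusted p = 0.720, limma), so the call at 200 ng/ml was lost. PIK3CA passed at 20 ng/ml alone, by -0.43 (SE 0.13, adjusted p = 0.0201, edgeR), and the adjusted p rose above 0.05 without B1, B2 or E1, to between 0.0600 and 0.130. The gap of SMAD4 was 1.67 at 20 ng/ml and 1.58 at 200 ng/ml (SE 0.14 for each), against 2.31 in controls, whereas that of TP63 was -1.51 and -2.18 (SE 0.11 for each), against -1.15 in controls.

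**Figure D3:**
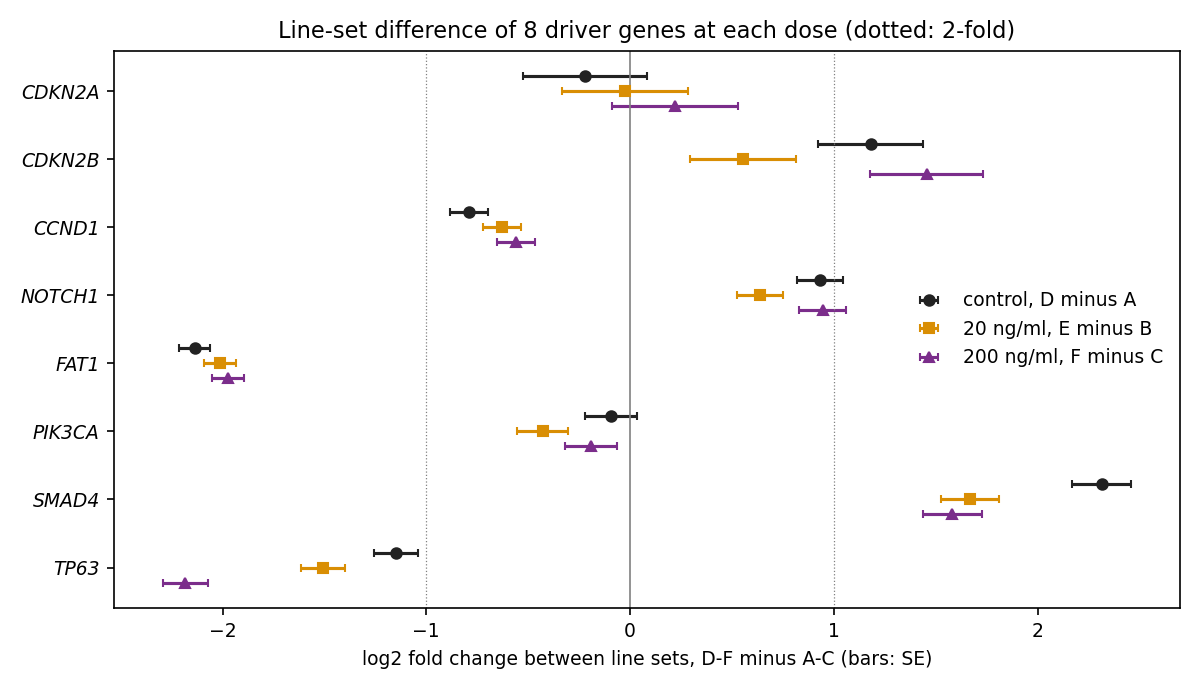
Log2 fold change between the line sets, D-F minus A-C, with its standard error, for 8 driver genes in controls (circles), at 20 ng/ml (squares) and at 200 ng/ml (triangles); dotted lines mark a 2-fold difference and SOX2, at 0 in D-F, is left out. FAT1 stays between -2.14 and -1.97, TP63 moves from -1.15 to -2.18, and SMAD4 moves from 2.31 to 1.58.

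IFNα changed few of these genes. Averaged over the sets, TP63 rose at 200 ng/ml by 0.41 on the log2 scale (SE 0.08, adjusted p = 0.00876, edgeR) and CDKN2B fell by 0.76 (SE 0.19, adjusted p = 0.0337, edgeR). These were 2 of 9 members that passed, beside 9.55% of all genes. None of the 9 was called by edgeR or by DESeq2, beside 2.14% of all genes, and 3 had an unadjusted p of at most 0.05, the third being NOTCH1 with -0.24 (adjusted p = 0.0957, edgeR). The others, SOX2 aside, were within 0.09 of 0, with 95% intervals that reached from -0.03 to 0.20 for FAT1, -0.08 to 0.21 for CCND1, -0.20 to 0.20 for PIK3CA, -0.15 to 0.30 for SMAD4 and -0.57 to 0.40 for CDKN2A. No interval is given for SOX2, which has no counts in D-F. At 20 ng/ml none of the 9 passed in edgeR or DESeq2 and none was called, beside 3.93% of all genes that passed and 1.15% called. Of the 9, 2 had an unadjusted p of at most 0.05, TP63 with 0.25 (adjusted p = 0.119, edgeR) and SMAD4 with 0.30 (adjusted p = 0.154, edgeR).

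The fall of CDKN2B rested on few counts, 40 to 281 per sample. Its adjusted p rose above 0.05 when any one of 7 of the 8 libraries was left out, to between 0.0637 and 0.105, and it was 0.0615 with the replicate numbers as a block. In C the transcript CDKN2B-201 was estimated at 0 counts in both samples, against 62 to 145 counts in A and B, while the shorter CDKN2B-203 was at 4.10 and 4.92 TPM, against 0.47 to 1.44 in A and B. The gene's TPM was therefore 6.96 and 6.18 in C and 3.48 and 4.50 in A, so that on TPM the direction turned, to 0.09 (adjusted p = 0.806, limma). In D-F the level was 18.6 and 17.8 CPM in D and 12.5 and 11.2 CPM in F, with a log2 fold change within the set of -0.62 (adjusted p = 0.221, edgeR).

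The rise of TP63 was seen in A-C. There TP63 rose at 200 ng/ml by 0.93 (SE 0.11, adjusted p = 0.00131, edgeR), 1.91-fold, and both C samples were above both B samples, which were above both A samples. TP63 was the 1 of 9 members that passed within A-C, beside 7.18% of all genes, and its adjusted p was 0.0523 when only controls and 200 ng/ml samples were fitted. CDKN2A without the transcript CDKN2A-212, a choice made after seeing the data, passed as well, by -0.74 within A-C (adjusted p = 0.0102, edgeR) and by -0.39 over both sets (adjusted p = 0.0232, edgeR). With the transcript kept CDKN2A did not pass, with -0.31 (adjusted p = 0.620, edgeR) and -0.09 (adjusted p = 0.888, edgeR). CDKN2A-212 had 86 and 33 counts in A and 76 and 125 in C. The INK4A class had 109 and 167 counts in A and 15 and 37 in C. Whether reads were divided differently between these transcripts was not tested. In D-F the log2 fold change of TP63 was -0.10 (SE 0.11, adjusted p = 0.707, edgeR), with a 95% interval from -0.34 to 0.14. None of the 9 members passed within D-F in edgeR or DESeq2, beside 5.84% of all genes, with 1 at an unadjusted p of at most 0.05. The difference between the responses was -1.03 (SE 0.15, adjusted p = 0.0136, edgeR), and TP63 was 1 of 9 members called in that test, beside 0.998% of all genes. Its adjusted p was 0.0600 without F1, 0.0556 without F2, 0.0518 when only controls and 200 ng/ml samples were fitted, and 0.0887 on TPM with limma. The fold of the difference also fell below 2 without A1, without C2 or without D1. At 20 ng/ml the rise in A-C was 0.43 (adjusted p = 0.117, edgeR; 0.0252 in DESeq2), and the difference between the responses, a test added after seeing the data, was -0.36 (adjusted p = 0.445, edgeR), where none of the 9 members passed in edgeR or DESeq2, 2 had an unadjusted p of at most 0.05, and 0.231% of all genes were called. Delta-N transcripts, with the retained-intron TP63-213 among them, were at 233 and 228 TPM in A, 313 and 343 in B and 353 and 431 in C. The class as a whole thus moved with the gene, while TP63-213 was at 77.5 and 62.3 TPM in A, 93.8 and 99.8 in B and 89.7 and 81.6 in C.

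**Figure D4:**
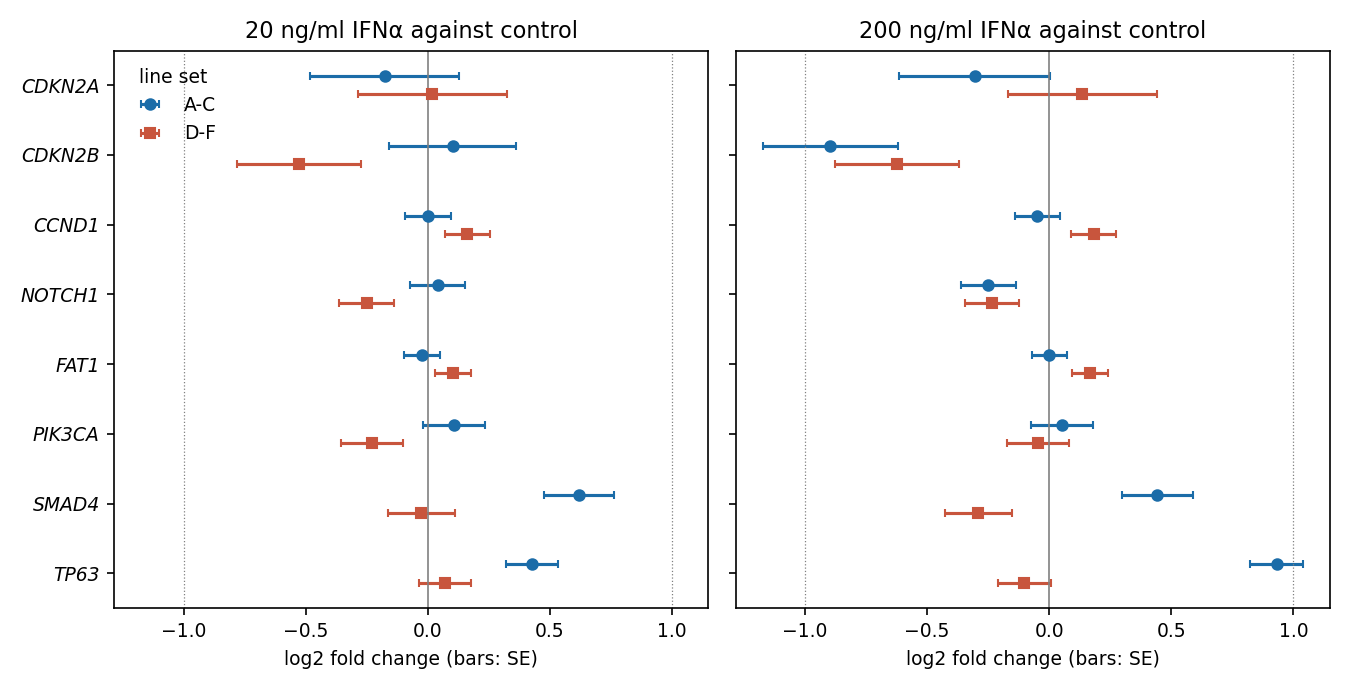
Log2 fold change against control with its standard error for 8 driver genes at 20 and 200 ng/ml IFNα, with blue circles for A-C and red squares for D-F; dotted lines mark a 2-fold change and SOX2, at 0 in D-F, is left out. TP63 in A-C stands at 0.43 and 0.93, TP63 in D-F at 0.07 and -0.10, and CCND1 lies between -0.05 and 0.18 in both sets.

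SMAD4 showed a similar layout on CPM with less certainty. Within A-C its log2 fold change was 0.62 at 20 ng/ml (adjusted p = 0.0944, edgeR; 0.0250 in DESeq2) and 0.44 at 200 ng/ml (adjusted p = 0.107, edgeR), with B and C samples at 17.1 to 22.9 CPM and A samples at 13.8 and 14.5 CPM. On TPM the doses overlapped, with 12.6 and 10.1 TPM in A, 11.3 and 13.2 in B, and 7.89 and 12.3 in C. Within D-F it was -0.03 and -0.29. The difference between the responses at 200 ng/ml was -0.73 (SE 0.20, adjusted p = 0.102, edgeR), with an adjusted p of 0.0395 in DESeq2. Neither of these passed in edgeR, and both were under 2-fold. The dose contrasts within a set share their control samples with each other and with the contrasts between the sets, so a chance deviation of A or D would move several of them.

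Few pathway genes around the members moved by 2-fold at 200 ng/ml. Among the G1/S, Notch, FAT and Hippo, PI3K, and SMAD and TGF-beta lists none was called by edgeR or DESeq2, and 3 of 17, 5 of 27, 1 of 22, 5 of 20 and 6 of 21 genes passed at any fold, beside 9.55% of all genes. The share that passed was under that of all genes in the FAT and Hippo list and over it in the other lists. At an unadjusted p of at most 0.05 the counts were 6, 9, 9, 10 and 9. In the squamous list 2 of 21 were called higher (1 in DESeq2), KRT6A, a keratin of activated keratinocytes, by 1.21 (adjusted p = 0.000153, edgeR) and KRT14 by 2.30 (adjusted p = 0.0394, edgeR). KRT14 was at 0 in both D samples, so its fitted fold depends on the prior count. In the SMAD and TGF-beta list the response of the ligand gene TGFB2 differed between the sets by -1.29 (adjusted p = 0.0160, edgeR), a gene named after its values were seen.

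The genes on either side of each member were then compared between controls, taking up to 10 tested genes upstream and 10 downstream along the chromosome. Of all genes tested, 50.3% had a positive log2 fold change, D minus A, and 15.7% were called higher and 11% lower. Around SMAD4, 19 of 20 neighbours were positive, 8 were called higher and none lower, with a median of 0.83, over a window of 6.01 Mb. An unnamed locus inside SMAD4 on the same strand, with 1.01 and not called, is counted among these 20. MYO5B, a myosin motor gene 1206 kb away, was at 19.3 and 23.2 CPM in A and 112 and 112 CPM in D. Distances are between the lower coordinates of the genes, and the genes next to SMAD4 itself were not among those called. Around PIK3CA, 17 of 20 neighbours were negative, 5 were called lower and 1 higher, with a median of -1.06, although PIK3CA itself was level. KCNMB3, a channel subunit gene that overlaps the end of PIK3CA on the other strand, was at 11.04 and 8.33 CPM in A and 3.65 and 5.05 CPM in D. Around TP63, 16 of 20 were negative, 3 were called lower and none higher, with a median of -0.60. These 20 include MIR944, with -1.38, and an unnamed locus, with -0.48, which lie inside TP63 on its strand and were not called. How far reads of such inner records come from the member itself was not tested. P3H2, a prolyl hydroxylase gene 325 kb away, was at 36.5 and 30.3 CPM in A and 4.57 and 6.60 CPM in D. Around SOX2, 15 of 20 were negative, 5 were called lower and 1 higher, and 5 of its neighbours were also neighbours of PIK3CA.

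**Figure D5:**
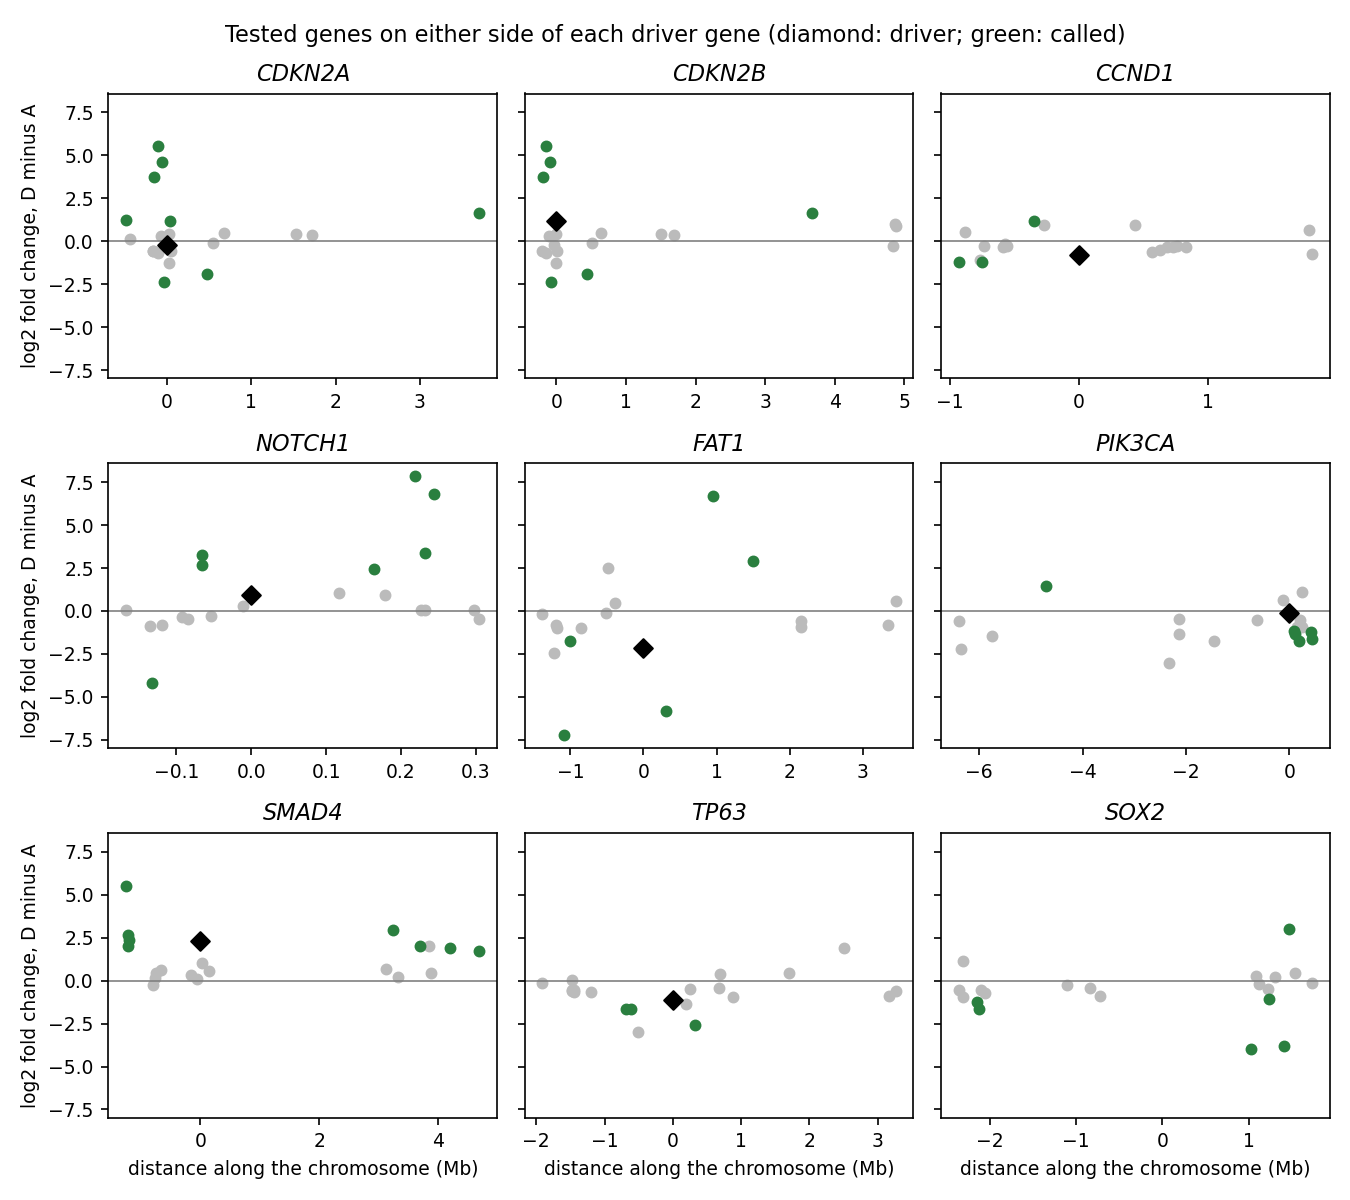
Log2 fold change between controls, D minus A, of the tested genes nearest to each driver gene against their distance from it in Mb, with called genes in green, other genes in grey and the driver gene itself as a black diamond (SOX2, at 0 in D, has none). In all, 19 of 20 neighbours of SMAD4 lie above 0 and 17 of 20 neighbours of PIK3CA below 0.

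The remaining surroundings were mixed. CCND1 had 15 of 20 neighbours below 0, with 2 called lower and 1 higher, MYEOV, a gene often gained together with CCND1, at 21.4 and 18.7 CPM in A and 37.6 and 53.1 CPM in D. FAT1, near a chromosome end, had 17 neighbours, of which 12 were negative, 3 called lower and 2 higher. NOTCH1 had 13 of 20 positive, with 6 called higher and 1 lower, INPP5E, a lipid phosphatase gene 65.8 kb away, at 20.2 and 24.1 CPM in A and 148 and 139 CPM in D. CDKN2A had 12 of 20 positive and CDKN2B 11 of 20, and 16 of those neighbours were the same. The unnamed locus that overlaps CDKN2A on its strand, with 4.61, is counted for both. Among 18 tested genes of the commonly gained distal long arm of chromosome 3, none passed as higher in D and 10 passed as lower, beside 24.1% and 22.4% of all genes, and 3 were called lower: ACTL6A, a chromatin remodelling subunit, by -1.25, the kinase gene PAK2 by -1.17 and OPA1, a mitochondrial fusion gene, by -1.05 (edgeR). In the gained region around CCND1, 1 of 8 genes was called, a share of 12.5% beside 26.6% of all genes. Around CDKN2A 3 of 7 were called, a share of 42.9%, with IFNE and MLLT3 higher and DMRTA1 lower in D.

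The tested genes whose log2 CPM followed each member most closely over the 12 samples were mostly other genes that separate the sets, and the points share libraries, line sets and depth. FAT1 followed KRT14, CCL2 and CCND2 with r of 0.998 to 0.999, and 1436 genes reached r over 0.95 with it. SMAD4 was closest to KIF11, RYBP and C16orf45 with r of 0.987 to 0.990, CCND1 to TSR1 with 0.991, NOTCH1 to AL121753.2 with 0.989, and SOX2 to AL512590.3 with 0.994. TP63, which also varied within A-C, was closest to LINC00881, ZBTB38 and PUM3 with r of 0.989 to 0.991, and 452 genes reached 0.95. PIK3CA and CDKN2A had no gene over 0.95, the nearest being CDC73 with 0.929 and WIPF2 with 0.927.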

How the data were processed

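RNA of 12 samples was sequenced by the authors after ribosomal RNA removal with a directional library kit. The authors deposited, per gene and per transcript, estimated counts in whole numbers that are not scaled for depth, and the deposited TPM and FPKM values are scaled for length and depth. FPKM was not used further. The submitters' processing notes name GRCh38.p10, Trimmomatic 0.36, HISAT2 2.1.0 and StringTie 1.3.3b, without their roles. The counting strand and annotation release are not given in the sources used here, so antisense reads may not be separated. The transcripts of a gene summed to its count in all 60099 genes, and a transcript's value is an estimate that depends on how shared reads were divided.

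Samples were grouped by the letter and dose in their titles. The members and gene lists were chosen with earlier results of these data known. Estimated counts were tested with edgeR 4.0.16 (R 4.3.3; TMM, filterByExpr, quasi-likelihood test, Benjamini-Hochberg adjustment over 19944 genes) in one fit of 6 groups, and CPM are counts scaled to the TMM library size. The SE is the size of the log2 change over the root of its F statistic, and 95% intervals use the fit's t distribution. A fold against a group at 0 was computed against 3 counts per library and is a lower bound, which covers counting error only. Replicate pairs differed by more than sampling noise, with a ratio of chi-square to its degrees of freedom from 11.7 to 16.4. Shares were tested by exact permutation over 216 arrangements, two-sided. Alternatives were RLE scaling, no filter, DESeq2 1.42.0, limma 3.58.1 on log2(TPM + 0.1), the compared groups alone, a replicate block, an unadjusted p of 0.05, leaving out each library and, for shares, counts. Scripts were tested on simulated data.

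All 9 members were named throughout. Per list up to 4 called genes with the largest change, D against A, per member up to 3 called genes among up to 10 tested neighbours on each side, and the 3 genes of highest Pearson r were eligible to be named, and exceptions are stated. Exon positions and junction sequences came from GENCODE release 29 on GRCh38. Python 3.11.15 with pandas 2.3.3, numpy 2.4.6, scipy 1.17.1 and matplotlib 3.10.9 made the tables and figures.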

Additional observations from a re-analysis of the deposited data

Results flagged for a closer look

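The response of TP63 to 200 ng/ml IFNα differed between the line sets, by -1.03 on the log2 scale (SE 0.15, adjusted p = 0.0136 in the edgeR interaction test, n = 2 per letter). TP63 was at 232 and 279 CPM in A and 449 and 526 CPM in C, and both C samples were above both A samples. It was at 120 and 110 CPM in D and 106 and 109 CPM in F. Every control was sequenced more deeply than every sample at 200 ng/ml in both sets, and the part of depth in this difference was not tested. The level of TP63 in each sample rests on 1272 to 5144 counts.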

How the results depend on the processing

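In controls 5 members were called, and 4 to 6 when a library was left out. Between the sets at 20 ng/ml 4 were called (4 to 4) and at 200 ng/ml 5 (5 to 6). All of these counts include SOX2, whose call was fixed in advance. For the difference of the response at 200 ng/ml the 1 called member became 0 with limma on TPM and 0 with the compared groups alone, and ranged from 0 to 1 without a library; within A-C at 200 ng/ml the count ranged from 0 to 1. The causes were not tested. On TPM, PIK3CA at 20 ng/ml, E against B, turned to 0.082, and CDKN2B at 200 ng/ml against control to 0.0916. The same replicate numbers did not pair the samples, as deviations of same-numbered samples correlated at -0.045 to 0.056, and with the replicate block CDKN2B at 200 ng/ml against control had -0.75 and an adjusted p of 0.0615 in edgeR; no other member crossed an adjusted p of 0.05 with the block. The difference of the response at 200 ng/ml was called for 199 of all genes, 69 with the replicate block, 367 in DESeq2, 131 on TPM, 100 with the compared groups alone, 1253 at an unadjusted p of 0.05 and 74 to 339 without a library. At an unadjusted p of 0.05 the calls over all genes rose from 426 to 846 at 200 ng/ml and from 229 to 649 at 20 ng/ml. Within A-C at 200 ng/ml 434 genes were called, 180 with the compared groups alone, 1079 at an unadjusted p and 240 to 621 without a library, and within D-F 416 became 950 at an unadjusted p. The added difference at 20 ng/ml gave 46 calls, 30 with the block, 158 in DESeq2, 809 at an unadjusted p and 28 to 61 without a library. On TPM the median log2 difference of all genes between the sets moved to 0.14, 0.22 and 0.27 at 0, 20 and 200 ng/ml, and the share of calls that were higher went from 59.0% to 69.9% in F against C and from 62.3% to 74.0% for the difference of the response at 200 ng/ml. The library number of 2 per letter limits the precision, and SOX2 rests on at most 26 counts.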
